A study of Mus musculus with 9 samples.

Results

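The 10 genes described here were 8 connexins (*Gjd2*, *Gjc1*, *Gja10*, *Gja1*, *Gja4*, *Gja5*, *Gjb2* and *Gjb6*) and 2 pannexins (*Panx1* and *Panx2*), chosen by gene symbol from the 25239 gene names in the tables of whole mouse retina. All 10 were listed in each of the 9 libraries, each in a single row. Of them, 7 had a mean of at least 1 TPM (the share of all transcripts, corrected for length, that sums to 1000000 in a library) over the 9 libraries and were tested, together with the other genes that passed, 15198 in all. *Gja5*, *Gjb2* and *Gjb6* were below that level and are given by their values.

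The data were bulk RNA-Seq of retinas at P42 on the C57BL/6J background, with the pair of retinas of 1 mouse in each library. There were 3 wild type (+/+), 3 heterozygous (Cre/+) and 3 homozygous (Cre/Cre) animals, taken among littermates (which libraries share a litter is not given), and the libraries are named here by genotype and replicate number. The Cre allele is a knock-in in which P2A and CreERT2, a recombinase that tamoxifen activates, follow the last codon of the endogenous *Rbpms* gene, so that ganglion cells make both proteins from that gene. No floxed target allele and no tamoxifen is given for these animals, and the comparison asks whether the allele itself altered the transcriptome of the retina.

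A gap junction is a channel between neighbouring cells, made of a hemichannel of connexins from each side, and it passes ions and small molecules directly. In the retina such junctions couple photoreceptors, horizontal cells, AII amacrine cells with each other and with ON cone bipolar cells, and some ganglion cells, and the strength of the coupling changes with light and dopamine. Pannexins are related in topology but not in sequence, and form large-pore channels in the membrane of a single cell that release ATP.

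The stretch of coding sequence for the first extracellular loop is shown for the 8 connexins because it is the part by which the family is recognised: the loops of facing hemichannels dock, and the cysteines hold the loop in shape. The pattern searched for was 3 cysteine codons with 6 codons between the first pair and 3 between the second pair, in the coding sequence of each gene. It was found 1 time in each of the 8 connexins, with its first cysteine at codon 53 to 55, and 0 times in *Panx1* and *Panx2*. The sequences are from GRCm38 (mm10) with GENCODE M21 models, 5′ to 3′ along the gene, and capitals mark the cysteine codons. Of the 36 positions, 16 were identical in all 8 genes, 10 of them outside the cysteine codons, and the share of identical positions between pairs ran from 63.9% for *Gja4* and *Gja5* to 83.3% for *Gjb2* and *Gjb6*.
Gjd2 (chr2:114011797-114011832, minus strand, exon 2): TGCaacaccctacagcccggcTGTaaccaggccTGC
Gjc1 (chr11:102800984-102801019, minus strand, exon 3): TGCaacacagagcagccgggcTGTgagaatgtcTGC
Gja10 (chr4:32602188-32602223, minus strand, exon 1): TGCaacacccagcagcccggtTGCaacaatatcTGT
Gja1 (chr10:56387706-56387741, plus strand, exon 2): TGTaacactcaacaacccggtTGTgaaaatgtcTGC
Gja4 (chr4:127312774-127312809, minus strand, exon 2): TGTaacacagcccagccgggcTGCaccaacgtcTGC
Gja5 (chr3:97050788-97050823, plus strand, exon 3): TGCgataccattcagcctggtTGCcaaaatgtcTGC
Gjb2 (chr14:57100558-57100593, minus strand, exon 2): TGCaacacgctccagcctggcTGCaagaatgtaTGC
Gjb6 (chr14:57124611-57124646, minus strand, exon 3): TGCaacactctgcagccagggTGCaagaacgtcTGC

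Aligned sequence, read from the ratio of coverage to FPKM in the tables, came to 4.05 to 4.65 gigabases per library. *Rbpms* was at 43.2, 38.4 and 43.4 TPM in the +/+ libraries, at 31.3, 32.2 and 33.1 TPM in the Cre/+ libraries and at 19.7, 19.1 and 24.2 TPM in the Cre/Cre libraries, with no overlap between genotypes. The library of Cre/Cre replicate 1 stood apart, with 9.21% of its TPM in *Rn45s*, a ribosomal RNA precursor, against 0.0827% to 0.336% in the others. Since TPM are shares of a fixed total, this lowers its other genes. Values with each library scaled by the median ratio of its genes are therefore given for some of the members and lists. That scaling moved the median log2 fold change of all genes from -0.02 to 0.00 in Cre/Cre against +/+ and from -0.03 to 0.00 in Cre/Cre against Cre/+. The share of genes below 0 went from 57.7% to 49.0% and from 59.2% to 49.2%. The library of Cre/Cre replicate 2 had the highest summed TPM of lens genes, as described with *Gja1*. *Xist*, which marks the inactive X chromosome, was at 516 to 585 TPM in 6 libraries, all 3 +/+ among them, and at 2.08 to 3.16 TPM in Cre/+ replicate 3 and Cre/Cre replicates 1 and 3. Its level is thus uneven across genotypes, and its part in the contrasts is given only through a fit with it as a covariate.

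In the wild type retina, *Gjd2* stood far above the other members. Its mean of 145 TPM placed it at rank 1282, above 94.9% of the gene names. TPM are per length, so levels can be compared between genes. *Panx2* followed at 34.4 TPM, then *Gjc1* at 13.5 TPM, *Panx1* at 8.35 TPM, *Gja10* at 5.60 TPM, *Gja1* at 3.16 TPM, *Gja4* at 1.55 TPM and *Gja5* at 0.312 TPM. The +/+ libraries of neighbours in this order did not overlap, except those of *Gja1* and *Gja4*, and *Gjb6* and *Gjb2*, which were listed at 0 in all 3. Over all 9 libraries, *Panx1* and *Gja10* also overlapped, as did *Gja10* and *Gja1*, and *Gja5* and *Gjb6*. Summed over the 20 connexin genes listed, connexin transcripts reached 173 ± 4.08 TPM in +/+ retinas (SD, n = 3), and *Gjd2* made up 83.7 ± 0.322% of that sum. Its share was 84.8 ± 1.71% in Cre/+ and 82.3 ± 2.52% in Cre/Cre retinas, and the ranges overlapped. The connexin sum was 172 ± 4.39 TPM in Cre/+ and 158 ± 9.86 TPM in Cre/Cre retinas. The highest Cre/Cre library, at 168.9 TPM, passed the lowest +/+ library, at 168.6 TPM. It was replicate 2, where *Gja1* took 8.34% of the sum, against at most 2.43% in any other library. Cre/Cre replicates 1 and 3 were at 149.8 and 155.2 TPM.

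**Figure D1:**
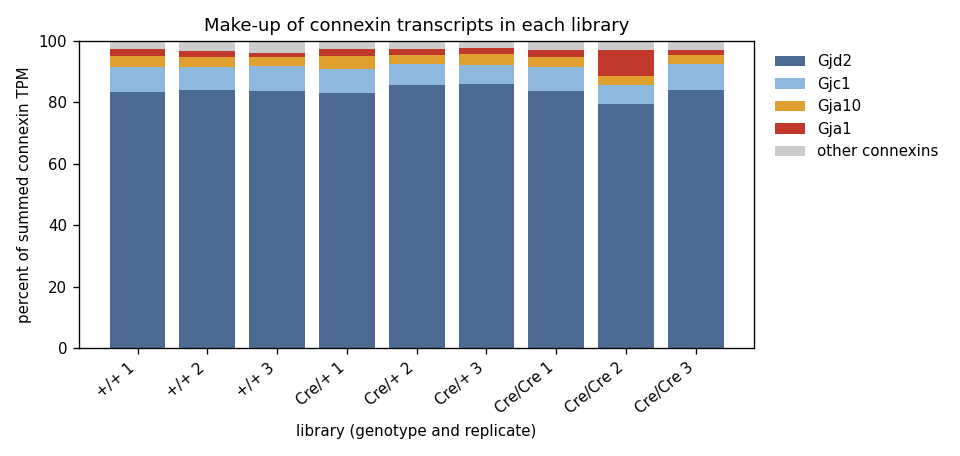
Share of the summed connexin TPM (y axis, percent) taken by *Gjd2*, *Gjc1*, *Gja10*, *Gja1* and the other connexins in each of the 9 libraries (x axis, genotype and replicate number). *Gjd2* held between 79.4% and 85.9% in every library, and *Gja1* took 8.34% in Cre/Cre replicate 2, against at most 2.43% elsewhere.

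None of the 7 tested members was called in any of the 3 contrasts at an adjusted p of 0.05 or less, by limma on log2(TPM + 1) over all genes tested. Few genes were called at all: 1 gene (0.00658% of the genes tested) in Cre/+ against +/+, 1 (0.00658%) in Cre/Cre against +/+ and 2 (0.0132%) in Cre/Cre against Cre/+. The gene called in Cre/Cre against +/+ was *Rbpms*, the knock-in locus, at a log2 fold change of -0.96 (adjusted p by limma 0.000581). At an unadjusted p under 0.05, 0 of 7 members passed in Cre/+ against +/+, where 10.7% of all genes did. In Cre/Cre against +/+ it was 1 of 7, with 6.97% of all genes, and in Cre/Cre against Cre/+ 1 of 7, with 6.58%. That member was *Gjd2* in both. In Cre/+ against +/+, 0 of the 7 tested members had groups that did not overlap, where 10.3% of all genes were separate and lower and 11.9% separate and higher. In Cre/Cre against +/+, 2 members were separate and lower (8.05% of all genes) and 0 separate and higher (2.7%). Against Cre/+, the same 2 members, *Gjd2* and *Gja10*, were separate and lower in Cre/Cre (7.23% of all genes) and 0 were higher (4.76%). The median log2 fold change of the 7 members was -0.07, -0.16 and -0.01 in the 3 contrasts, beside 0.00, -0.02 and -0.03 for all genes tested. The comparisons share samples, and each gives its own values.

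**Figure D2:**
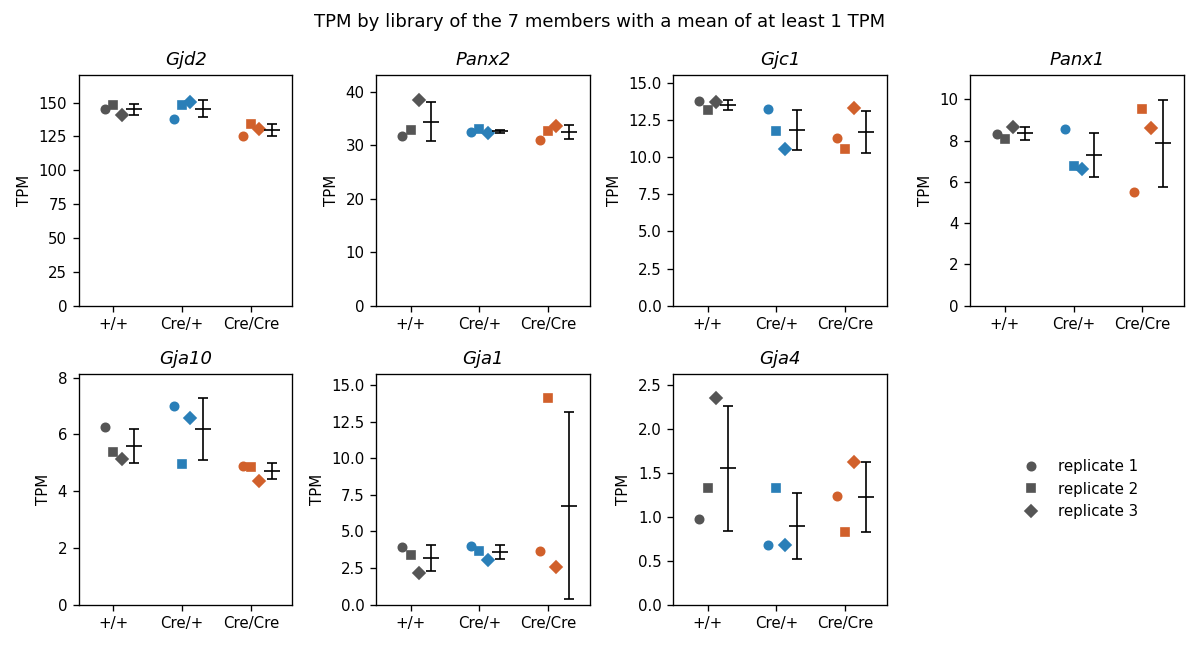
TPM (y axis, from 0, its range set for each gene) of the 7 tested members in each library by genotype (x axis), where symbols mark the replicate number and the bar beside them the mean ± SD of 3 libraries. The 3 Cre/Cre libraries lie below all others for *Gjd2* and *Gja10*, and Cre/Cre replicate 2 lies at 14.1 TPM for *Gja1*.

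*Gjd2* (chr2:114009601-114013619, minus strand) codes for Cx36, the main connexin of retinal neurons, found in the AII amacrine network, in cones and in ganglion cells. It was at 145.4, 148.4 and 140.9 TPM in the +/+ libraries, at 138.0, 148.4 and 150.3 TPM in the Cre/+ libraries and at 125.4, 134.2 and 130.2 TPM in the Cre/Cre libraries. Every Cre/Cre value was below every value of the other genotypes, while +/+ and Cre/+ overlapped. The Cre/Cre mean of 130 ± 4.38 TPM was 89.7% of the +/+ mean of 145 ± 3.77 TPM, a log2 fold change of -0.16 (SE 0.07, 95% interval -0.31 to -0.01). Its unadjusted p was 0.0436 and its adjusted p by limma 0.704, so the difference did not pass the test. Against Cre/+ the log2 fold change was -0.16 (adjusted p by limma 0.740), and in Cre/+ against +/+ it was 0.01 (interval -0.15 to 0.16, adjusted p by limma 0.985).

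With the libraries scaled by their median ratio, *Gjd2* came to 143, 150.6 and 137.9 in +/+ libraries, 136.6, 147.8 and 147.1 in Cre/+ libraries and 136.8, 131.5 and 126.4 in Cre/Cre libraries. Cre/Cre stayed below +/+, as did 1091 of the 15198 genes tested under this scaling, but met the lowest Cre/+ library. The log2 fold change was -0.13 in each of these contrasts. Without Cre/Cre replicate 1, it was -0.13 against +/+ and -0.14 against Cre/+. The summed TPM of 9 other genes of AII and other amacrine cells was from 1653 to 1672 in +/+ libraries. It was from 1585 to 1663 in Cre/+ and from 1421 to 1601 in Cre/Cre libraries, which overlapped. In Cre/Cre against +/+, 7 of the 9 genes were below 0, and *Dab1* and *Nfia* were above it. *Calb2*, the most abundant of the 9, weighs most in these sums. Its means were 591 TPM in +/+ and 514 TPM in Cre/Cre retinas. After the scaling the sums were 1636 to 1678 in +/+, 1569 to 1643 in Cre/+ and 1547 to 1569 in Cre/Cre libraries. Cre/Cre stayed below +/+ and met the lowest Cre/+ library. In the unscaled contrast 57.7% of all genes were below 0. So were 9 of 9 ganglion cell, 7 of 8 bipolar cell and 8 of 8 Müller glia genes. Of the photoreceptor genes 8 of 9 were, and of the horizontal cell genes 6 of 7. At an unadjusted limma p under 0.05, 8 of 9 ganglion cell genes, *Rbpms* included, were lower, beside 6.97% of all genes in either direction. Among the amacrine, bipolar, photoreceptor, horizontal cell and Müller glia genes, 2, 1, 1, 1 and 0 were lower. The ganglion cell genes summed to 1554 to 1642 TPM in +/+, 1482 to 1537 in Cre/+ and 1132 to 1365 in Cre/Cre libraries. Scaled, they were 1521 to 1615, 1467 to 1504 and 1235 to 1337, with no overlap. The part of these cells in the *Gjd2* difference was not tested, and in bulk tissue fewer cells of a type and less RNA per cell cannot be told apart. The paper counted RBPMS-positive and POU4F1-positive cells in whole-mount retinas and reports no significant difference between the genotypes. It reports none for its counts of cells in the ganglion cell layer and the inner and outer nuclear layers either. The row of *Gjd2* shares 55 bases, 1.37% of its span, with *A530058N18Rik* on the opposite strand, which was at 66.3 to 90.0 TPM. The libraries keep strand, but whether the quantification used it is not given in the sources used here.

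*Gjc1* (chr11:102799478-102819686, minus strand) codes for Cx45, which pairs with Cx36 in junctions between AII amacrine and ON cone bipolar cells. Its +/+ libraries were at 13.78, 13.15 and 13.70 TPM, its Cre/+ libraries at 13.22, 11.79 and 10.53 TPM and its Cre/Cre libraries at 11.29, 10.56 and 13.31 TPM. The +/+ libraries lay close together, and the highest library of each other genotype reached into their range. The log2 fold change was -0.18 in Cre/+ against +/+ (interval -0.44 to 0.07, adjusted p by limma 0.577) and -0.20 in Cre/Cre against +/+ (interval -0.46 to 0.06, adjusted p by limma 0.818). Under the median-ratio scaling both genotypes lay just below +/+. They reached 13.09 at most in Cre/+ and 12.92 at most in Cre/Cre libraries, against 13.35 at least in +/+ libraries. Of the 15198 genes tested, 1697 lay below +/+ without overlap in Cre/+ and 1091 in Cre/Cre libraries under the same scaling. Cre/Cre and Cre/+ differed by -0.02 on the log2 scale (interval -0.27 to 0.24). *Gjd2* exceeded *Gjc1* 10.7 ± 0.520 times in +/+, 12.4 ± 1.93 times in Cre/+ and 11.2 ± 1.47 times in Cre/Cre retinas.

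*Gja10* (chr4:32600865-32602382, minus strand) codes for Cx57, the connexin that joins horizontal cells to each other in the mouse. Its row spans 1518 bases, the length of the coding sequence alone. It was at 6.27, 5.38 and 5.14 TPM in +/+, at 7.02, 4.96 and 6.58 TPM in Cre/+ and at 4.88, 4.87 and 4.37 TPM in Cre/Cre libraries. The Cre/Cre libraries were the 3 lowest of the 9, though the lowest Cre/+ library was only just above them, and none overlapped. The mean of 4.70 ± 0.289 TPM in Cre/Cre retinas was 84.1% of that in +/+, with a log2 fold change of -0.21 (interval -0.54 to 0.12, adjusted p by limma 0.862). Against Cre/+ the log2 fold change was -0.32 (interval -0.65 to 0.01, adjusted p by limma 0.740). Under the median-ratio scaling the Cre/Cre libraries overlapped with both others, at 4.24 to 5.32 against 5.03 to 6.17 in +/+ and 4.94 to 6.94 in Cre/+ libraries. The 7 listed horizontal cell genes summed to 537 to 587 TPM in +/+, 556 to 588 TPM in Cre/+ and 496 to 573 TPM in Cre/Cre libraries, with overlap. The smallest p among them in Cre/Cre against +/+ was that of *Onecut1*, a transcription factor of horizontal cells, at a log2 fold change of -0.43 (adjusted p by limma 0.656).

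**Figure D3:**
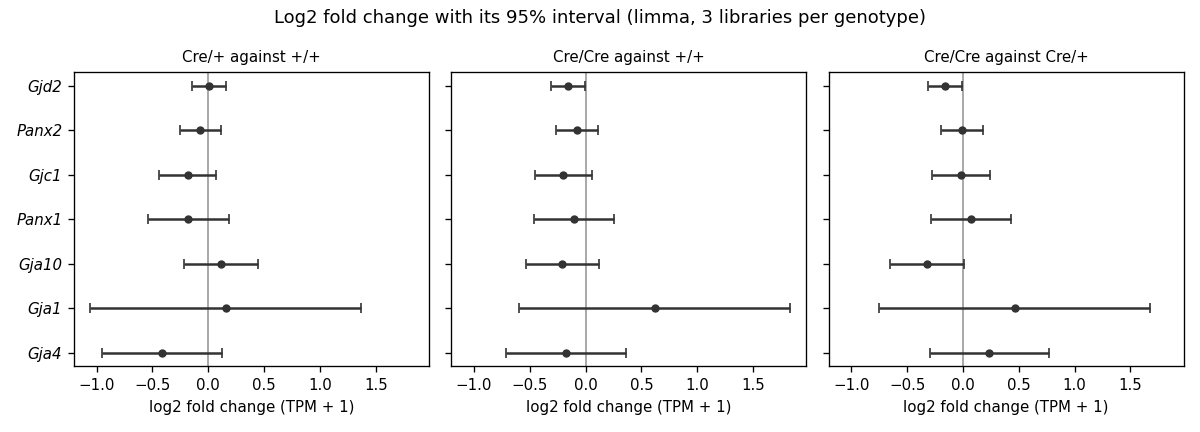
Log2 fold change of log2(TPM + 1) with its 95% interval from limma (x axis) for the 7 tested members (y axis) in the 3 contrasts, 3 libraries per genotype. In Cre/Cre against +/+ and against Cre/+ the interval of *Gjd2* ends at -0.01, every other interval spans 0, and those of *Gja1* are the widest.

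*Gja1* (chr10:56377300-56390419, plus strand) codes for Cx43, the connexin of astrocytes and other glia, of pigment epithelium and of many non-neural cells of the eye. It was at 3.91, 3.39 and 2.16 TPM in +/+, at 3.99, 3.66 and 3.06 TPM in Cre/+ and at 3.64, 14.1 and 2.53 TPM in Cre/Cre libraries. A single library, Cre/Cre replicate 2, was 3.53 times the next highest, and the remaining 8 libraries overlapped across genotypes. The log2 fold change in Cre/Cre against +/+ was 0.62 with a wide interval, -0.60 to 1.83 (adjusted p by limma 0.890), and without that library it was -0.01. That library was also the only Cre/Cre library with high *Xist*, at 547 TPM against 2.08 and 3.16 TPM. With *Xist* as a covariate, in a fit that thus rests in part on that library, the log2 fold change was 1.33, and 0.50 in Cre/+ against +/+. Against Cre/+ it went from 0.46 (interval -0.75 to 1.68) to -0.17 without that library, and in Cre/+ against +/+ it was 0.15 (interval -1.06 to 1.37, adjusted p by limma 0.935).

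The genes whose log2 level ran most like that of *Gja1* over the 9 libraries were *Penk*, *Col1a2* and *Gpx3*, with Pearson's r of 0.985, 0.979 and 0.975. *Penk*, the precursor of enkephalin peptides, reached 43.7 TPM there, while no other library passed 10.7 TPM. *Gpx3*, a secreted glutathione peroxidase, was at 51.4 TPM against at most 8.53 TPM, and *Col1a2*, a fibrillar collagen chain, at 7.17 TPM against at most 2.58 TPM. These r rest on that library in part: over the other 8 they were 0.885, 0.814 and 0.758 for *Penk*, *Col1a2* and *Gpx3*. In the same library the 11 lens genes summed to 1241 TPM, against 20.04 to 284 TPM in the others, with 8 of the 11 highest there, while *Lim2* was listed at 0. A list of 5 ciliary body and iris genes, written after the *Gja1* values were seen, summed to 76.1 TPM against 16.1 to 20.9 TPM. Most of that came from *Optc*, which codes for an extracellular matrix protein of the vitreous made by the ciliary epithelium, at 55.7 TPM against 1.34 to 3.27 TPM. In that list 3 of the 5 genes were highest there. *Otx1* was at 1.40 TPM against at most 0.323 TPM, and *Zic1* at 7.69 TPM against at most 6.70 TPM. *Wfdc1* and *Msx1* lay within the range of the other libraries. *Slc6a13*, a GABA and taurine transporter, was at 11.04 TPM against at most 3.67 TPM, and is named, like *Optc*, after its values were seen. It and *Col1a2* belong to a list of 8 leptomeninges and fibroblast genes that summed to 56.5 TPM, above the 38.5 to 52.2 TPM of the others, while the other 6 genes of that list lay within the range of the other libraries. Among other cells known for *Gja1*, the astrocyte genes summed to 72.1 TPM (57.6 to 82.7 TPM in the others), the Müller glia genes to 6018 TPM (5153 to 6294 TPM) and the pigment epithelium genes to 41.4 TPM (19.0 to 92.7 TPM), with 2 genes of each list highest in that library (*Pax2* and *Pdgfra*, *Apoe* and *Dkk3*, and *Pmel* and *Tyrp1*), at 1.03 to 1.34 times the next highest. The part of any of these tissues in the *Gja1* level was not tested.

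**Figure D4:**
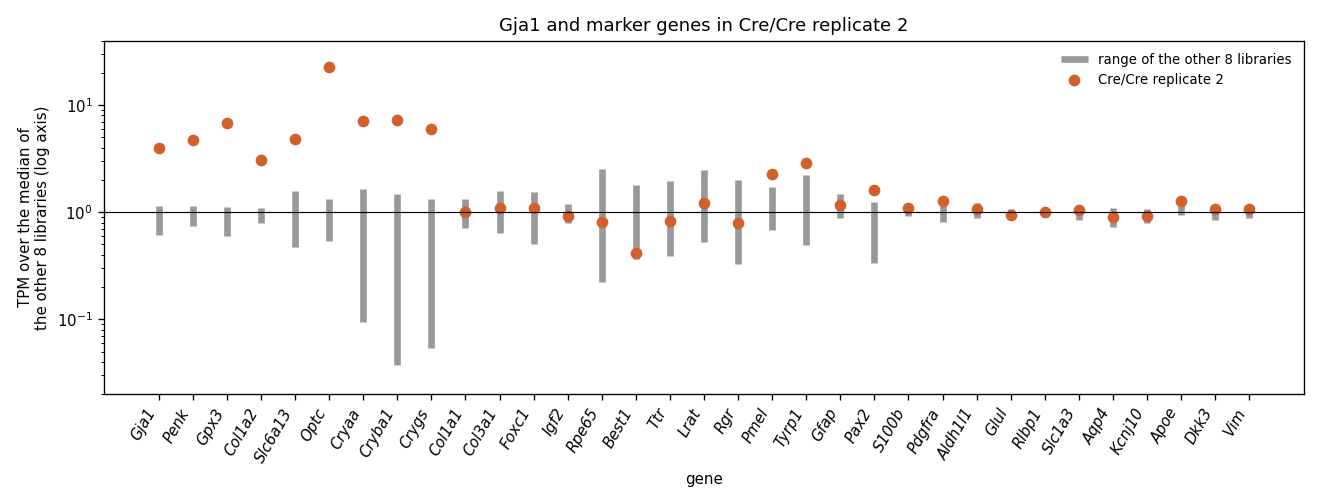
TPM in Cre/Cre replicate 2 (orange points) and range over the other 8 libraries (grey bars), each divided by the median of those 8 (y axis, log scale), for *Gja1*, the 3 genes most like it, *Slc6a13*, *Optc*, 3 lens genes and the leptomeninges, pigment epithelium, astrocyte and Müller glia genes that were above 0 in all 8 (x axis, in that order). Of the 11 lens genes only *Cryaa*, *Cryba1* and *Crygs* are drawn, and of the 5 ciliary body and iris genes only *Optc*. Among those not drawn, *Mip*, *Bfsp2*, *Lim2*, *Wfdc1* and *Msx1* did not pass the highest other library, and the rest did. *Gja1* lies at 4.01 times that median and *Optc* at 22.5 times, while among the pigment epithelium, astrocyte and Müller glia genes *Pmel*, *Tyrp1*, *Pax2*, *Pdgfra*, *Apoe* and *Dkk3* lie above the range of the other libraries by at most 1.34 times and the rest lie within it.

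*Gja4* (chr4:127311420-127314039, minus strand) and *Gja5* (chr3:97032402-97053634, plus strand) code for Cx37 and Cx40, the connexins of endothelial cells, above all in arteries. *Gja4* was at 0.976, 1.33 and 2.34 TPM in +/+, at 0.674, 1.32 and 0.674 TPM in Cre/+ and at 1.24, 0.820 and 1.62 TPM in Cre/Cre libraries. The 3 genotypes overlapped, and +/+ replicate 3 was the highest. The log2 fold change of *Gja4* was -0.41 in Cre/+ against +/+ (interval -0.95 to 0.12, adjusted p by limma 0.549), -0.20 without +/+ replicate 3, -0.20 by FPKM and -0.71 with a pseudocount of 0.1. It was -0.18 in Cre/Cre against +/+ (interval -0.71 to 0.36, adjusted p by limma 0.951). *Gja5* was at 0.581, 0.136 and 0.218 TPM in +/+, listed at 0 in 2 libraries of each other genotype, and otherwise at 0.0785 TPM (Cre/+ replicate 2) and 0.313 TPM (Cre/Cre replicate 3). Its +/+ and Cre/+ libraries did not overlap, and those of Cre/Cre overlapped with both. The mean read depth over its row reached 0.722 at most in any library, so nothing is drawn from this separation. In a fit without the filter on low levels, over 20504 genes, its log2 fold change was -0.34 in Cre/+ against +/+ (unadjusted p by limma 0.0409, adjusted p 0.532). It was -0.25 in Cre/Cre against +/+ (adjusted p by limma 0.839). The share of all genes with so small an unadjusted p in that fit is not given here. The 10 endothelial genes summed to 226 to 243 TPM in +/+, 215 to 238 TPM in Cre/+ and 198 to 220 TPM in Cre/Cre libraries. *Kdr*, the most abundant of them, weighs most in these sums, with means of 116 TPM in +/+ and 95.1 TPM in Cre/Cre retinas. In Cre/Cre against +/+, 5 of the 10 genes were below 0, and their median log2 fold change was -0.01.

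*Gjb2* (chr14:57098602-57104702, minus strand) and *Gjb6* (chr14:57123301-57133611, minus strand) are neighbours in the genome and code for Cx26 and Cx30, which form junctions in the cochlea and, for Cx30, in brain astrocytes. *Gjb2* was listed at 0 in 8 libraries and at 0.126 TPM in Cre/+ replicate 1. *Gjb6* was listed at 0 in 8 libraries too, and at 0.114 TPM in Cre/+ replicate 2. The mean read depth over those rows was 0.171 and 0.136, below 1 read per base, so nothing is drawn from which library held them.

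*Panx1* (chr9:15005785-15045478, minus strand) codes for the broadly expressed ATP-release channel, present in ganglion cells among others. It was at 8.33, 8.06 and 8.67 TPM in +/+, at 8.54, 6.77 and 6.61 TPM in Cre/+ and at 5.50, 9.54 and 8.59 TPM in Cre/Cre libraries. Cre/Cre held both the lowest and the highest library, and the groups overlapped. The log2 fold change was -0.18 in Cre/+ against +/+ (interval -0.54 to 0.18) and -0.10 in Cre/Cre against +/+ (interval -0.46 to 0.26), with adjusted p by limma of 0.702 and 0.957. *Panx2* (chr15:89059726-89070907, plus strand), the pannexin with the long intracellular tail that is abundant in the nervous system, was at 31.8, 32.8 and 38.5 TPM in +/+, at 32.4, 33.0 and 32.4 TPM in Cre/+ and at 31.1, 32.7 and 33.7 TPM in Cre/Cre libraries. Apart from +/+ replicate 3, the libraries of *Panx2* lay between 31.1 and 33.7 TPM. Its log2 fold change was -0.07 in Cre/+ against +/+ (interval -0.26 to 0.12) and -0.08 in Cre/Cre against +/+ (interval -0.26 to 0.11), with adjusted p by limma of 0.782 and 0.929. *Panx2* exceeded *Panx1* 4.11 ± 0.313 times in +/+, 4.52 ± 0.626 times in Cre/+ and 4.33 ± 1.17 times in Cre/Cre retinas.

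Among other connexins, *Gje1*, *Gjb1*, *Gjd3* and *Gja6* had means of 0.738, 0.315, 0.260 and 0.101 TPM over the 9 libraries, all below the filter. *Gja3* did not pass 0.160 TPM in any library, and *Gjb5* and *Gjc3* were listed at 0 in all 9.

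The scaffold proteins, kinases and receptors that set gap junction coupling were listed as 21 genes, of which 20 were tested. *Adora2a*, an adenosine receptor with a mean of 0.921 TPM, was not. None was called in any contrast (limma, adjusted p over all genes). At an unadjusted p under 0.05, 1 was higher in Cre/+ against +/+, 3 were lower in Cre/Cre against +/+ and 2 were lower in Cre/Cre against Cre/+, out of 20 genes, where 10.7%, 6.97% and 6.58% of all genes passed. Their median log2 fold changes were -0.01, -0.06 and -0.09, beside 0.00, -0.02 and -0.03 for all genes. *Nedd4*, a ubiquitin ligase of Cx43, and *Ppp2ca*, a phosphatase subunit, were among the most abundant, at means of 411 and 386 TPM. *Camk2d*, a protein kinase gene, had the smallest p in Cre/+ against +/+, at a log2 fold change of 0.22 (adjusted p by limma 0.432). *Tjp3*, which codes for the junction scaffold ZO-3, was at 3.29, 5.30 and 4.10 TPM in +/+ and at 2.79, 2.74 and 2.603 TPM in Cre/Cre libraries, with no overlap. Its log2 fold change was -0.48 (adjusted p by limma 0.656), and scaled values did not overlap either, at 3.24 to 5.38 and 2.53 to 3.05. In that contrast 3 of the 20 genes were separate and lower, beside 8.05% of all genes. Under the scaling, 1091 of the 15198 genes tested were. *Drd1*, a dopamine receptor, had the smallest p in Cre/Cre against Cre/+, at -0.25 on the log2 scale (adjusted p by limma 0.740), with Cre/Cre libraries at 32.8, 48.0 and 38.3 TPM beside 46.5, 46.3 and 47.4 TPM in Cre/+, and the groups overlapped with and without the scaling.

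Of the 11 genes listed for proteins that act with pannexin channels, 8 were tested and none was called in any contrast (limma). At an unadjusted p under 0.05, 1 of 8 was lower in Cre/+ against +/+ and 0 passed in the other contrasts, beside the same shares of all genes (10.7%, 6.97% and 6.58%). Their median log2 fold changes were 0.03, 0.00 and -0.06. *Entpd2*, an enzyme that hydrolyses extracellular ATP, was at 4.91, 5.36 and 5.20 TPM in +/+ libraries. It was at 4.55, 3.45 and 3.23 TPM in Cre/+ libraries, with no overlap and a log2 fold change of -0.38 (adjusted p by limma 0.429). Its Cre/Cre libraries, at 3.725, 4.812 and 3.865 TPM, lay below +/+ too, at -0.27 (adjusted p by limma 0.818). Of all genes, 10.3% and 8.05% were separate and lower in these contrasts. *Nt5e*, the ectonucleotidase that makes adenosine from AMP, was the most abundant at a mean of 158 TPM.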

How the data were processed

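The authors made strand-specific poly(A) libraries, trimmed reads with Trimmomatic, aligned them with HISAT2 to mm10 and quantified genes with StringTie. Versions, annotation and the quantification's strand setting are not given in the sources used here. The deposited tables hold TPM, FPKM and coverage per gene row. The TPM as deposited sum to 1000000 per library. FPKM, as deposited by the authors, was used for an alternative, and the deposited coverage (mean reads per base) for depth. No counts were used here, so intervals for counting error are not given.

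Genotype and replicate number came from the labels. TPM were summed by gene name. Genes with a mean of at least 1 TPM over 9 libraries were tested with limma 3.58.1 (R 4.3.3, trended and robust prior) on log2(TPM + 1), with genotype as the only term, 6 residual degrees of freedom and Benjamini-Hochberg adjustment over 15198 genes. Fold changes are on that scale and understate changes of low genes. Calls needed an adjusted p of 0.05 or less. The procedure was tested on simulated data. SDs are of 3 animals per genotype, and p-values are two-sided.

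The members and gene lists were chosen with earlier results of these data known. From each list the text names genes called, the 3 most abundant, the smallest p per contrast and, for further connexins, means of at least 0.1 TPM. For *Gjd2*, *Gjc1* and *Gja1* it names the 3 genes of highest Pearson's r. Some genes these rules name are not reported here. Coding windows were read from GRCm38 with GENCODE M21. Alternatives were a pseudocount of 0.1, no filter, a replicate block, only the genotypes compared, FPKM, median-ratio scaling, leaving out *Rn45s*, *Lars2* and *Rpph1*, a prior that is not robust, *Xist* level as a covariate (it ranged from 2.08 to 585 TPM, and no sex is given), and each library left out.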

Additional observations from a re-analysis of the deposited data

Results flagged for a closer look

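For each of the 7 tested members, the distance from the highest or lowest library to the next one was divided by the whole spread of the 9 values and set against Dixon's 95% critical value. Chance passes this about 1 time in 20, and 2 of the 7 members did, as did 7.19% of all genes tested. *Gja1* was at 14.1 TPM in Cre/Cre replicate 2, and its other libraries held 2.16 to 3.99 TPM, a ratio of 0.847. With that library highest, 113 genes, 0.744% of those tested, passed the critical value. *Panx2* was at 38.5 TPM in +/+ replicate 3, with 31.1 to 33.7 TPM in its other libraries, a ratio of 0.652. With +/+ replicate 3 highest, 148 genes, 0.974%, passed it.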

How the results depend on the processing

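No member was called under any alternative in any of the 3 contrasts. Of 378 values of the 21 log2 fold changes under other settings, 356 kept their direction and 22 changed it; the cause was not tested. The changes of direction outside the left-out libraries gave values up to 0.102 in size, where *Panx1* went from -0.105. They were *Gjd2* in Cre/+ against +/+ by FPKM (-0.0195), *Panx1* in Cre/Cre against +/+ with *Xist* as a covariate (0.102), and, in Cre/Cre against Cre/+, *Gjc1* (0.0170 and 0.0341) and *Panx2* (0.0285 and 0.0464) under median-ratio scaling and without *Rn45s*, *Lars2* and *Rpph1*. With 1 library left out, the log2 fold change in Cre/+ against +/+ ranged from -0.0175 to 0.0436 for *Gjd2*, -0.0297 to 0.288 for *Gja1* and -0.123 to 0.0117 for *Panx2*. In Cre/Cre against +/+ it ranged from -0.0135 to 1.03 for *Gja1* (lowest without Cre/Cre replicate 2), -0.343 to 0.0370 for *Gja4*, -0.243 to 0.105 for *Panx1* and -0.128 to 0.00620 for *Panx2*. In Cre/Cre against Cre/+ it ranged from -0.103 to 0.0607 for *Gjc1*, -0.168 to 0.879 for *Gja1* (lowest without Cre/Cre replicate 2), -0.0651 to 0.283 for *Panx1* and -0.0311 to 0.0251 for *Panx2*. *Gjd2* stayed below 0 in Cre/Cre against +/+ throughout, at -0.10 at the least, without *Rn45s*, *Lars2* and *Rpph1*. Of the 356 values that kept their direction, 63 were over 1.5 times larger or smaller, none of them called. In Cre/+ against +/+ these ran from 0.03 to 0.24 for *Gja10*, whose value with all libraries in TPM was 0.12, -0.71 to -0.20 for *Gja4* and -0.28 to -0.08 for *Panx1*, and *Gja4* in Cre/Cre against Cre/+ from 0.10 to 0.44.

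Same-numbered libraries of different genotypes are not stated to share more than a number. The 9 correlations of their deviations ran from -0.116 to 0.128, 1 of them over 0.1. With the number as a replicate block 0 members were called, and *Gjd2* in Cre/Cre against +/+ was at -0.16 (adjusted p by limma 0.739). The precision for each tested member is that of the interval printed beside it. *Gja5*, *Gjb2* and *Gjb6* did not pass the filter and are outside these counts.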

Other observations

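Over the 9 libraries, the genes that ran most like *Gjd2* on the log2 scale were *Timm44*, *Sox2* and *Ptgfrn*, with Pearson's r of 0.986, 0.965 and 0.965. Over the 8 libraries other than Cre/Cre replicate 1 the values were 0.977, 0.956 and 0.946. *Timm44* codes for a part of the mitochondrial protein import motor, and *Sox2* for a transcription factor of Müller glia and some amacrine cells. For *Gjc1* they were *2010320M18Rik*, *Tmco6* and *Zbtb7b*, with r of 0.951, 0.939 and 0.931. These are the highest of 15198 genes over few libraries, which share depth and composition, and are given as a description.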
